A study of Homo sapiens with 12 samples.

Results

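Both short hairpin RNAs (shRNAs) that the study aimed at TMLHE lowered it, yet the cells that carried them differed from each other at most of the expressed genes. RNA sequencing libraries of Ovcar8 cells with CCNE1 overexpression and shTMLHE #1 (3 libraries) were compared with libraries of Ovcar8 cells with CCNE1 overexpression and shTMLHE #2 (3 libraries). These 6 were chosen by their labels from the 12 libraries of the series, whose other groups of 3 were control cells and cells with CCNE1 overexpression alone. Of 58735 genes in the deposited table of counts, 15378 had enough counts to be tested. Ovcar8 cells come from an established high-grade serous ovarian carcinoma line and were grown in RPMI-1640 with 5% serum. The constructs were brought in by lentivirus under puromycin selection, and both hairpin groups carry the CCNE1 construct. The labels name no non-targeting hairpin in any group, and they do not say whether a line was 1 clone or a pool. The replicates of a group are not stated to be separate cultures, so p-values measure the spread between these libraries, which may be technical.

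TMLHE encodes trimethyllysine dioxygenase, the alpha-ketoglutarate-dependent enzyme that takes the first step of carnitine synthesis, and carnitine carries fatty acids into mitochondria and acetyl groups out of them. A short hairpin RNA is cut by DICER1 into a small duplex, of which one strand is loaded into an Argonaute protein and guides it to matching mRNAs. A full match leads to cleavage of the mRNA. A match of only the seed, the bases near the 5′ end of the guide, can lower other mRNAs in the manner of a microRNA, most often through sites in the 3′ untranslated region (3′UTR). For this reason studies commonly use more than 1 hairpin against a gene.

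The hairpin libraries held 14558444 to 19945180 counts each. Genes with at least 1 count numbered 21429 to 21962 with shTMLHE #1 and 22256 to 23463 with shTMLHE #2, against 18411 to 18698 with CCNE1 overexpression alone. The mean GC content of counted genes, weighted by their counts, was 51.6 to 51.9% with shTMLHE #1 and 49.9 to 50.03% with shTMLHE #2, against 52.8 to 52.9% with CCNE1 overexpression alone. The first principal component of the 6 hairpin libraries took 74.9% of their variance and separated the hairpins. Of the serous ovarian cancer markers, PAX8, MSLN, KRT7, KRT8 and KRT18 were abundant in all 6 libraries, while MUC16 and MECOM had no count and WT1, SOX17 and EMX2 had at most 0.307 CPM (counts scaled to 1000000 per library). The leukocyte markers CD3D, CD2, MS4A1, FCGR3A, CD68 and TYROBP had no count in any of the 6, and PTPRC had 4 counts over all of them. Of the 11 endothelial markers PECAM1, CDH5 and EMCN were at or under 0.371 CPM, and the other 8 reached 0.742 CPM (TEK) to 6.09 CPM (TIE1), with ESAM, ROBO4, ERG and VWF between them. Of the 11 fibroblast markers DCN and DPT had no count, COL1A2, COL3A1, LUM, PDGFRA, FAP, THY1 and ACTA2 were at or under 2.41 CPM, PDGFRB was at 36.7 to 54.3 CPM and COL1A1 at 1484 to 1778 CPM. Their part in the differences was not tested.

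TMLHE was at 0.712, 0.885 and 1.27 CPM with shTMLHE #1 and at 0.247, 0.471 and 0.729 CPM with shTMLHE #2, after scaling by TMM (edgeR's trimmed mean of M values), which all levels below share. CCNE1 overexpression alone had 13.2, 15.4 and 18.6 CPM and control cells 15.1 to 18.3 CPM. The lowest library of CCNE1 overexpression was therefore above the highest of either hairpin, and the hairpin groups overlapped each other. These hairpin values rest on 13, 16 and 21 counts with shTMLHE #1 and on 6, 10 and 13 counts with shTMLHE #2. The log2 fold change of shTMLHE #1 against CCNE1 overexpression was -4.04 ± 0.24 (SE) and that of shTMLHE #2 was -5.07 ± 0.26. Between the hairpins TMLHE was 1.03 ± 0.37 higher with shTMLHE #1 (log2, adjusted p = 0.0154 by edgeR), a call that was lost without shTMLHE #1 replicate 3 (0.78, adjusted p = 0.114) or without shTMLHE #2 replicate 1 (0.67, adjusted p = 0.141).

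CCNE1, whose product cyclin E1 pushes cells from G1 into DNA replication, was at 1316, 1271 and 1218 CPM with shTMLHE #1 and at 860.3, 823 and 858 CPM with shTMLHE #2. The overexpressing cells without a hairpin, called CCNE1 alone from here on, had 963 to 1027 CPM, and control cells 31.6 to 34.1 CPM. All 3 libraries of shTMLHE #1 were above, and all 3 of shTMLHE #2 below, CCNE1 alone. The difference between the hairpins was 0.58 ± 0.03 (log2, adjusted p = 3.13e-18). So the level of the overexpressed gene itself differed between the groups, and its part in the other differences was not tested.

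Differences between the hairpins were tested with edgeR's quasi-likelihood F-test, two-sided, on the counts of all 12 libraries with 1 mean per group, and p-values were adjusted over the 15378 genes by the Benjamini-Hochberg method. Below, a gene is called at an adjusted p under 0.05. By this rule 9277 genes, 60.3% of those tested, differed between the hairpins. Of them 4811 (31.3% of the tested genes) were higher with shTMLHE #1 and 4466 (29.0%) were lower. At least 2-fold differences were called for 1404 genes in the first direction and 1005 in the second. The 3 libraries of one hairpin did not overlap the 3 of the other at 10722 genes, 69.7% of those tested. Against CCNE1 overexpression alone, the same fit called 60.7% of genes with shTMLHE #1 and 73.0% with shTMLHE #2; both of these comparisons use the same 3 libraries of CCNE1 alone, so they are given only side by side.

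**Figure D1:**
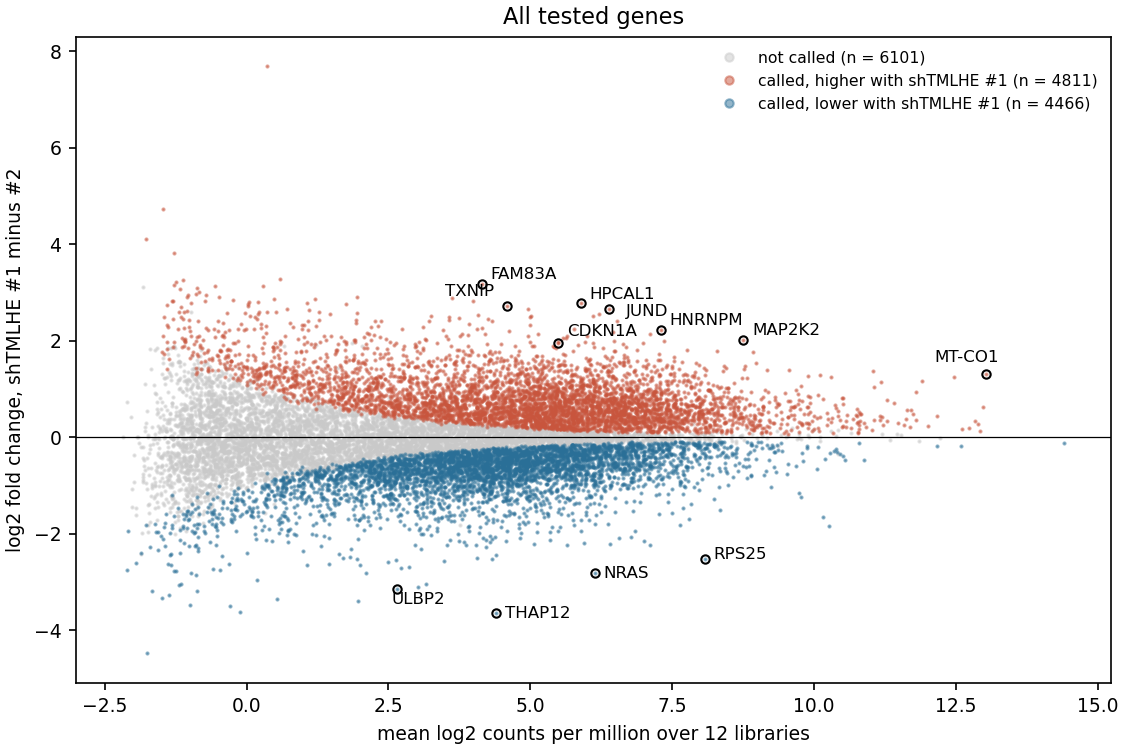
Log2 fold change of shTMLHE #1 against shTMLHE #2 (vertical) against the mean log2 CPM over 12 libraries (horizontal) for 15378 tested genes, coloured by call. THAP12 at -3.64 and FAM83A at 3.17 are among the labelled genes, and called genes reach across the whole range of levels.

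The size and direction of the differences followed the GC content of the genes. Among the decile of genes lowest in GC the median log2 difference was -0.56, and 61.4% were called lower with shTMLHE #1 against 2.93% called higher. Among the decile highest in GC the median was 0.75, and 70.6% were called higher against 2.99% lower. Across 15373 genes Spearman's rho between the difference and GC content was 0.586, and with exon length it was -0.14; genes are not independent replicates, and both are descriptions. A second set of values was therefore computed after the dependence of each library's counts on GC content and gene length had been removed by smooth offsets, and these are called the offset values below. With offsets 7458 genes were called, 48.5% of those tested, 4050 of them higher with shTMLHE #1 (26.3%) and 3408 lower (22.2%). Both ways of counting called 2890 genes higher and 2312 lower, and they gave opposite calls for 711 genes. Whether the relation to GC content arose in the cells or in the libraries was not tested.

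**Figure D2:**
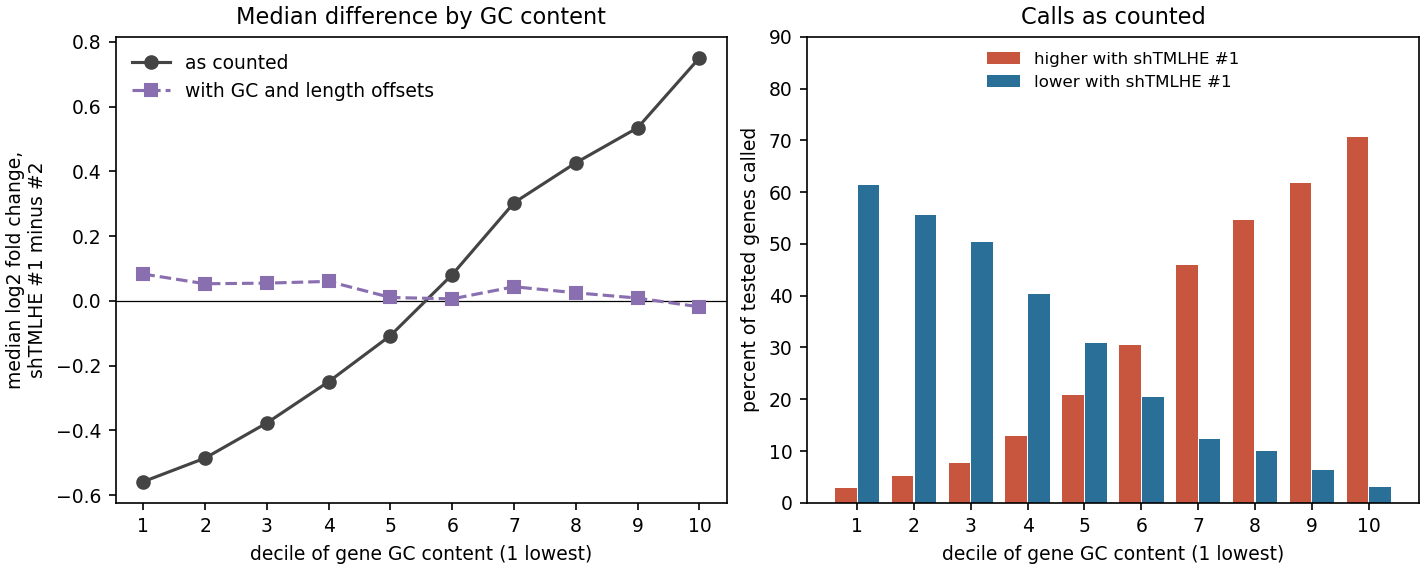
Left, the median log2 fold change (shTMLHE #1 minus #2) in each decile of tested genes by GC content, as counted (circles) and with GC and length offsets (squares). Right, the percent of genes in each decile called higher or lower with shTMLHE #1 as counted. The median climbs from -0.56 to 0.75 as counted and stays between -0.02 and 0.08 with offsets.

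THAP12, a THAP-domain zinc finger protein also known as PRKRIR, had the largest difference in its direction among well-measured genes. It was at 4.88, 4.31 and 6.72 CPM with shTMLHE #1 and at 66.8, 62.0 and 68.2 CPM with shTMLHE #2. CCNE1 overexpression alone lay between them at 29.3, 33.6 and 33.3 CPM. The difference between the hairpins was -3.64 ± 0.11 (log2, adjusted p = 1.00e-26). ULBP2, a stress-induced surface ligand of the activating receptor NKG2D on natural killer (NK) cells, followed the same order. Its levels were 2.03, 2.38 and 1.57 CPM with shTMLHE #1, 5.60 to 6.27 CPM with CCNE1 alone and 16.6, 18.5 and 18.3 CPM with shTMLHE #2. The difference was -3.15 ± 0.19 (adjusted p = 3.18e-17), and no library of one group reached into another.

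FAM83A, a scaffold protein that acts in signalling from the EGF receptor, stood at the other end. It was at 27.0, 26.1 and 26.0 CPM with shTMLHE #1 and at 3.41, 2.07 and 3.25 CPM with shTMLHE #2. CCNE1 overexpression alone had 19.3 to 23.7 CPM, just below shTMLHE #1, and control cells had a mean of 57.9 CPM. The difference between the hairpins was 3.17 ± 0.13 (adjusted p = 2.84e-22). CDKN1A, which encodes the cyclin-dependent kinase inhibitor p21, departed from the overexpressing cells in both directions. Its levels of 75.7, 73.2 and 81.1 CPM with shTMLHE #1 were above, and its 19.2, 21.9 and 18.3 CPM with shTMLHE #2 below, the 34.0 to 36.1 CPM of CCNE1 overexpression alone. Control cells had 73.9 to 80.6 CPM, which overlapped shTMLHE #1. Between the hairpins it differed by 1.95 ± 0.07 (adjusted p = 6.74e-24).

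By a rule of size, the 12 genes with the largest differences in each direction were taken from genes that were called both as counted and with offsets, had a mean log2 level of at least 1, had a symbol that is not a clone, LOC or LINC name and did not overlap between the hairpins. In the direction of FAM83A these were also ZFP92, SBK1, C3, TMEM229B, HPCAL1, CPLX1, TXNIP, JUND, FAM171A2, SIRPB1 and CDC42BPG, with log2 differences of 2.59 to 3.17. HPCAL1, a neuronal calcium sensor protein, was at 92.3, 91.8 and 92.8 CPM with shTMLHE #1 and at 14.3, 13.3 and 12.6 CPM with shTMLHE #2, where CCNE1 alone had 109 to 118 CPM. Its difference was 2.78 ± 0.06. JUND, a subunit of the AP-1 transcription factor, was at 82.7, 84.0 and 94.1 CPM with shTMLHE #1, at 14.1, 14.9 and 12.0 CPM with shTMLHE #2, and at 183 to 192 CPM with CCNE1 alone. For both genes shTMLHE #2 gave the lowest levels, and shTMLHE #1 was also below CCNE1 alone. Control cells had 83.5 to 85.7 CPM of HPCAL1, below shTMLHE #1, and 199 to 229 CPM of JUND.

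Others of the 12 were above the overexpressing cells with shTMLHE #1. C3, the central protein of complement, was at 10.1, 10.1 and 8.35 CPM with shTMLHE #1, against 1.23, 1.32 and 1.35 CPM with shTMLHE #2 and 0.697 to 2.145 CPM with CCNE1 alone. TXNIP, which binds thioredoxin and restrains glucose uptake, was at 47.1, 44.4 and 41.4 CPM with shTMLHE #1, at 6.62, 6.17 and 7.46 CPM with shTMLHE #2 and at 17.2 to 18.4 CPM with CCNE1 alone. For C3 the shTMLHE #2 libraries lay within the range of CCNE1 alone, and for TXNIP they lay below it. TMEM229B, CDC42BPG and CPLX1 are among the genes that rest on low levels. Their shTMLHE #2 libraries were at 0.283 to 0.617 CPM, 0.452 to 1.04 CPM and 0.617 to 0.707 CPM.

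In the direction of THAP12 the 12 genes held, among others, TRIQK, ULBP2, RASSF3, B4GALT6, NRAS, SNHG4, HOXC8, GCNT2, MAMDC2 and GALNT7, with log2 differences of -3.64 to -2.63. NRAS, one of the RAS GTPases that pass growth signals to the MAP kinases, was at 22.8, 22.2 and 19.5 CPM with shTMLHE #1 and at 150.4, 154 and 149.8 CPM with shTMLHE #2. With CCNE1 alone it was at 104 to 108 CPM, and the difference between the hairpins was -2.81 ± 0.08 (adjusted p = 3.07e-21). HOXC8, a homeobox transcription factor, was at 2.08, 2.10 and 2.42 CPM with shTMLHE #1, at 13.0, 14.0 and 15.9 CPM with shTMLHE #2 and at 7.86 to 9.63 CPM with CCNE1 alone. In both genes CCNE1 alone lay between the hairpins. The glycosyltransferase genes B4GALT6, GCNT2 and GALNT7 are also in this set.

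**Figure D3:**
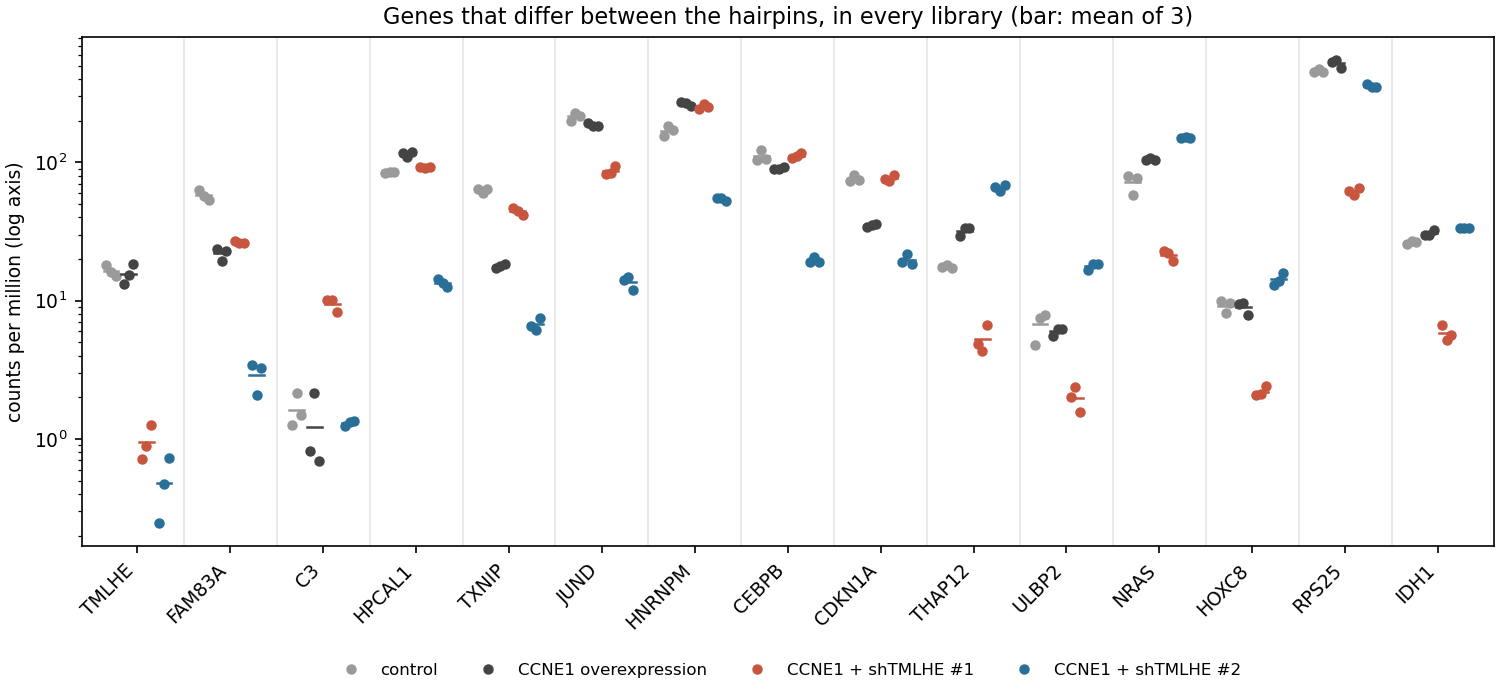
CPM (log axis) of 15 genes in every library of control, CCNE1 overexpression and the 2 hairpin groups; points are libraries and bars the mean of 3. TMLHE is low with both hairpins, the genes from FAM83A to CDKN1A are lower with shTMLHE #2, and those from THAP12 to IDH1 are lower with shTMLHE #1.

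Among genes at least 2-fold different and not yet named, those with the smallest p-values were abundant. Higher with shTMLHE #1 were MAP2K2, ACOT7, MT-CO1, HNRNPM, NSMF and GIPC1. MAP2K2, the kinase MEK2 of the MAP kinase cascade, was at 503, 509 and 481 CPM with shTMLHE #1, at 122, 126 and 119 CPM with shTMLHE #2 and at 921 to 962 CPM with CCNE1 alone. HNRNPM, a regulator of splicing, was at 244, 265 and 253 CPM with shTMLHE #1, at 55.3, 55.4 and 52.6 CPM with shTMLHE #2 and at 255 to 272 CPM with CCNE1 alone. Control cells had 156 to 183 CPM, and the shTMLHE #2 libraries were below all others. Lower with shTMLHE #1 were, among others, RPS25, HSP90AA1, TRAM2, CAP1 and DDX21. RPS25, a protein of the small ribosomal subunit, was at 61.6, 58.3 and 65.5 CPM with shTMLHE #1 and at 368, 351 and 350.0 CPM with shTMLHE #2, against 485 to 551 CPM with CCNE1 alone (log2 difference -2.53 ± 0.05, adjusted p = 7.57e-33). HSP90AA1, a cytosolic chaperone, was at 868, 848 and 790.3 CPM with shTMLHE #1, at 2617, 2572 and 2652 CPM with shTMLHE #2 and at 1144 to 1175 CPM with CCNE1 alone. Of the RPS25 exon bases 20.8% are shared with overlapping genes, and ribosomal protein genes have many near-identical pseudogenes, so its exact level is uncertain.

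Lists of genes with a shared function are described by their called members and their median, beside 60.3% called and a median of -0.01 over all tested genes; with offsets the median of all genes was 0.04. Counts in parentheses are the members called higher, then lower, with offsets. When libraries were scaled to total counts alone, the median of all genes moved to -0.15. The carnitine list, which holds the pathway of TMLHE, had 8 of 13 tested members called higher with shTMLHE #1 and 1 lower (9 and 2 with offsets), a median of 0.58 and an offset median of 0.62. Higher were TMLHE, the serine hydroxymethyltransferases SHMT1 and SHMT2, the acetyltransferase CRAT, the palmitoyltransferases CPT1A and CPT1C, the transporter SLC22A4 and the dehydrogenase ALDH9A1. SLC25A20, the carrier of acylcarnitines across the inner mitochondrial membrane, was the lower one, at 3.23, 1.71 and 3.69 CPM with shTMLHE #1, 9.13, 9.04 and 7.96 CPM with shTMLHE #2 and 8.59 to 13.4 CPM with CCNE1 alone. CRAT, which moves acetyl groups between carnitine and coenzyme A, was at 42.3, 41.8 and 43.2 CPM with shTMLHE #1, 17.4, 16.9 and 14.9 CPM with shTMLHE #2 and 67.7 to 87.1 CPM with CCNE1 alone. So the SLC25A20 carrier was low with the first hairpin, and CRAT was low with both and lowest with the second.

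All 13 mRNAs encoded by the mitochondrial genome were called higher with shTMLHE #1, by 0.32 for MT-ND5 to 1.37 for MT-ATP6, with a median of 0.93 and an offset median of 1.26. They took 4.72 to 4.99% of counts with shTMLHE #1, 2.44 to 2.53% with shTMLHE #2 and 2.83 to 2.90% with CCNE1 alone. MT-CO1, a subunit of complex IV, was at 12657, 12009 and 11418 CPM with shTMLHE #1, at 4863, 4829 and 4837 CPM with shTMLHE #2 and at 6916 to 6981 CPM with CCNE1 alone. MT-CO2, another subunit of complex IV, was below the 7260 to 7571 CPM of the overexpressing cells with both hairpins, at 5930 to 6358 CPM and at 2467 to 2650 CPM. Nuclear-encoded subunits of oxidative phosphorylation had 30 of 53 members higher with shTMLHE #1 and 14 lower (29 and 4 with offsets), with a median of 0.21. NDUFV1 of complex I was at 293, 303 and 313 CPM and at 160.3, 158 and 159 CPM, both below the 529 to 547 CPM with CCNE1 alone.

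Metabolic enzymes split within families. IDH1 and IDH2 both turn isocitrate into alpha-ketoglutarate, the former in the cytosol and the latter in mitochondria. IDH1 was at 6.63, 5.199 and 5.63 CPM with shTMLHE #1 and at 33.6, 33.4 and 33.7 CPM with shTMLHE #2, against 29.7 to 32.5 CPM with CCNE1 alone (-2.52 ± 0.11). IDH2 went the other way, with 168, 166 and 177 CPM with shTMLHE #1, 52.1, 50.5 and 51.4 CPM with shTMLHE #2 and 246 to 259 CPM with CCNE1 alone (1.73 ± 0.04). Over the TCA cycle and alpha-ketoglutarate list 18 of 37 members were higher with shTMLHE #1 and 12 lower (14 and 7 with offsets), with the citrate synthase gene CS (-0.78) and the aminotransferase gene BCAT1 (-1.11) among the lower. Fatty acid beta-oxidation had 11 of 25 higher and 6 lower (12 and 4 with offsets). The short-chain acyl-CoA dehydrogenase gene ACADS was 1.60 and the thiolase gene ACAA1 1.02 higher. Glycolysis and hypoxia genes had 16 of 31 higher, with PFKL at 1.29 and ENO2 at 0.77, and 7 lower (12 and 10 with offsets), with LDHA at -0.71 and PFKFB3 at -1.72. In cholesterol synthesis 8 of 25 were higher and 11 lower (3 and 13 with offsets); 1 was called higher and 8 lower both as counted and with offsets. By p-value rank, MSMO1, IDI1, HMGCS1 and SQLE led the lower members. HMGCS1, the enzyme that makes HMG-CoA, was at 61.9, 61.3 and 64.3 CPM with shTMLHE #1 and at 153, 159 and 158 CPM with shTMLHE #2, both above the 24.6 to 26.3 CPM with CCNE1 alone.

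**Figure D4:**
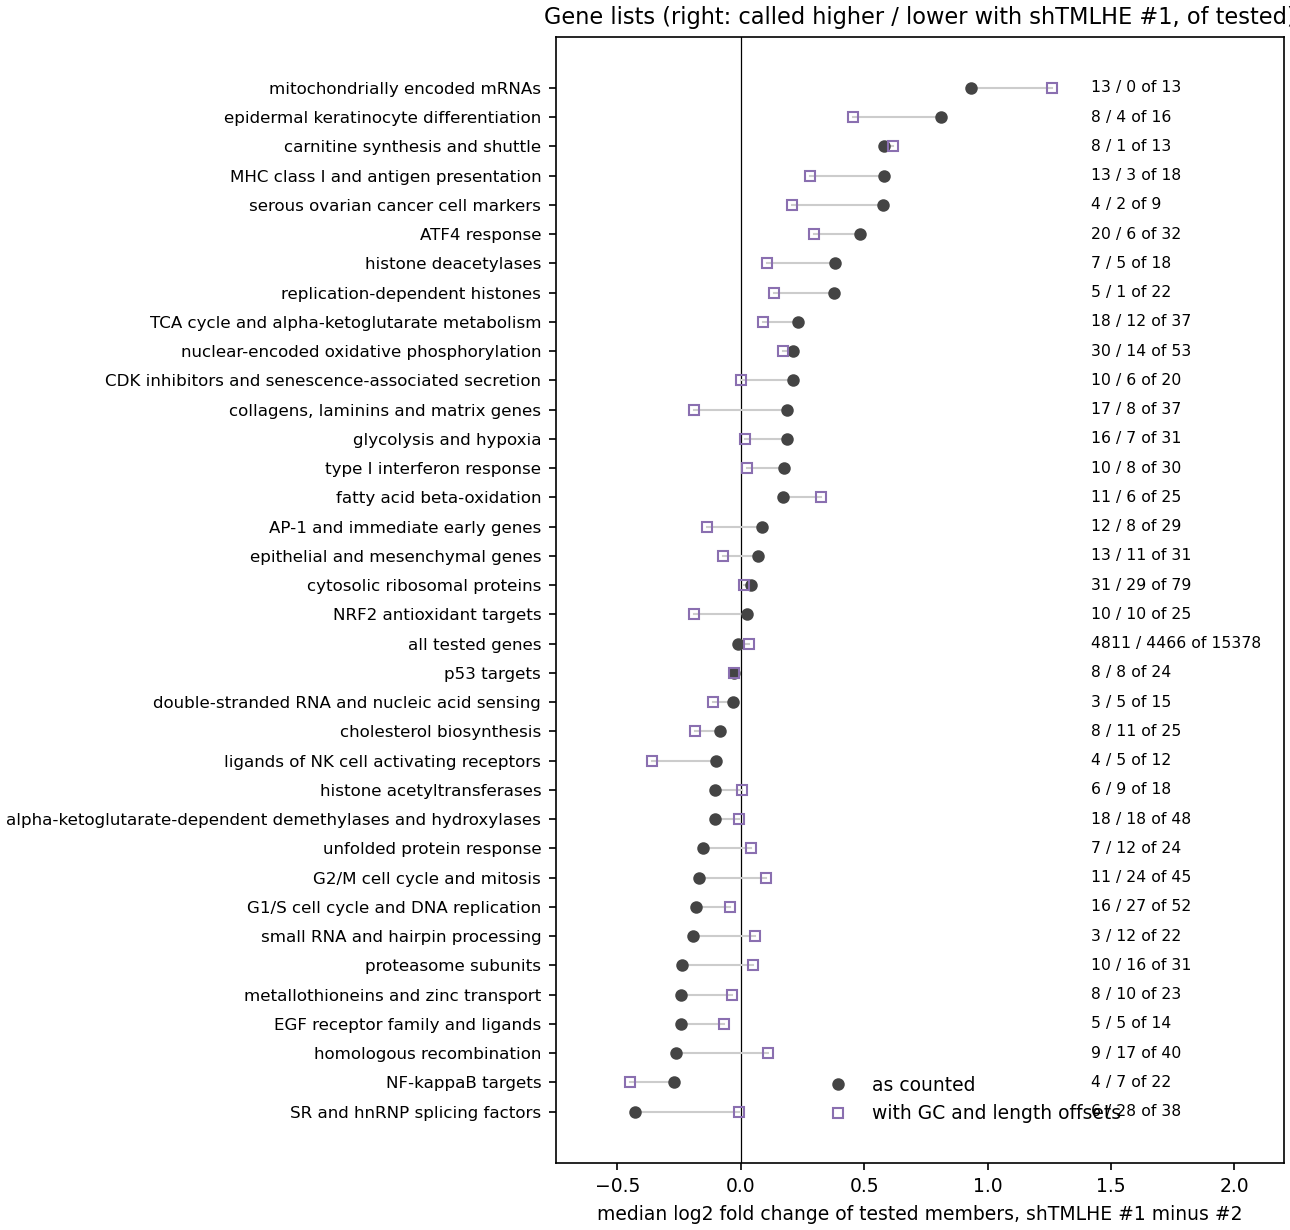
Median log2 fold change (shTMLHE #1 minus #2) of the tested members of each gene list with at least 9 of them, as counted (circles) and with GC and length offsets (squares), with called members in each direction at the right. The mitochondrially encoded mRNAs have the highest median at 0.93, and the SR and hnRNP splicing factors the lowest as counted at -0.43, which is -0.01 with offsets.

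Stress programmes differed in part. The ATF4 list, genes of the amino acid and integrated stress response, had 20 of 32 members higher with shTMLHE #1 and 6 lower (17 and 6 with offsets), with a median of 0.48 and an offset median of 0.30. CEBPB, a transcription factor of that response, was at 108, 111 and 117 CPM with shTMLHE #1 and at 18.9, 20.6 and 18.96 CPM with shTMLHE #2, against 89.1 to 92.7 CPM with CCNE1 alone. PHGDH, the entry enzyme of serine synthesis, and the amino acid transporter SLC7A5 were 1.05 and 1.22 higher on the log2 scale. The unfolded protein response had 7 of 24 higher and 12 lower (9 and 9 with offsets), with a median of -0.15 that was 0.04 with offsets. SEL1L, part of the machinery that degrades misfolded proteins of the endoplasmic reticulum, was at 10.4, 10.1 and 9.68 CPM with shTMLHE #1, 41.5, 45.4 and 46.0 CPM with shTMLHE #2 and 24.0 to 28.7 CPM with CCNE1 alone. NRF2 targets had 10 of 25 members higher and 10 lower (6 and 11 with offsets), with a median of 0.02 that was -0.19 with offsets. HMOX1, which degrades haem, was at 2.14 ± 0.11 and NQO1, a quinone reductase, at -0.86 ± 0.04. NF-kappaB targets had 4 of 22 higher and 7 lower (1 and 9 with offsets), with a median of -0.27 that was -0.45 with offsets. The cytokine gene IL1B was at 1.79 ± 0.18 and the mitochondrial dismutase gene SOD2 at -1.15 ± 0.13.

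The p53 targets did not move as a block. Of 24 tested, 8 were higher and 8 lower with shTMLHE #1 (8 and 5 with offsets), and the median was -0.03 both as counted and with offsets. CDKN1A, FDXR and SESN2 were higher, by 1.95, 1.46 and 1.09, and CCNG1 was lower, at -0.84. CDKN1B, which encodes p27, an inhibitor related to p21, was at 22.9, 24.3 and 27.2 CPM with shTMLHE #1 and at 61.8, 61.6 and 62.8 CPM with shTMLHE #2, opposite in direction to CDKN1A. With CCNE1 alone it was at 34.2 to 42.1 CPM. In the list of CDK inhibitors and secreted senescence factors 10 of 20 members were higher and 6 lower (8 and 4 with offsets). IGFBP3, a secreted binder of insulin-like growth factors, was at 81.7 to 92.2 CPM with shTMLHE #1 against 277 to 290.5 CPM with shTMLHE #2, and at 236 to 267 CPM with CCNE1 alone.

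Cell cycle genes were more often lower than higher with shTMLHE #1 as counted. G1/S and replication genes had 16 of 52 higher and 27 lower (12 and 20 with offsets) (median -0.18, offset median -0.04), and G2/M genes 11 of 45 higher and 24 lower (median -0.17). With offsets the G2/M split turned to 21 higher and 9 lower and its median to 0.10. Cyclin genes went in both directions. CCND1, which encodes cyclin D1 of the G1 phase, was at 583, 599 and 564 CPM with shTMLHE #1 and at 291, 294 and 296 CPM with shTMLHE #2, where CCNE1 alone had 245 to 266 CPM. CCNA2, which encodes cyclin A2 of S phase, was at 78.7 to 85.5 CPM with shTMLHE #1, at 77.9 to 79.6 CPM with CCNE1 alone and at 167 to 172 CPM with shTMLHE #2. MCM5 and POLD1, of the replication fork, and CDC20, UBE2C and FOXM1, of mitosis, were higher with shTMLHE #1 by 0.94 to 1.48.

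Homologous recombination repairs double-strand breaks from a sister copy and is named in the title of the series. As counted 9 of 40 genes were higher with shTMLHE #1 and 17 lower, with a median of -0.26; with offsets 10 were higher, 2 lower and the median 0.11, so the sign turned. No member was called lower both ways, and 6 were called higher both ways. RPA1, a subunit of the protein that coats single-stranded DNA, was at 385, 403 and 402 CPM with shTMLHE #1, at 319, 306 and 307 CPM with shTMLHE #2 and at 404 to 416 CPM with CCNE1 alone. MUS81, a nuclease that cuts joined DNA strands, was at 64.7 to 69.4 CPM with shTMLHE #1, at 34.0 to 35.7 CPM with shTMLHE #2 and at 65.3 to 78.5 CPM with CCNE1 alone. NBN of the break-sensing complex and XRCC3, which acts in strand exchange, were called in opposite directions as counted (-0.79 and 0.90) and neither was called with offsets; 76.7% of the XRCC3 exon bases overlap other genes.

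Genes of histone acetylation were split. Acetyltransferases had 6 of 18 higher and 9 lower (7 and 5 with offsets), with a median of -0.10 that was 0.00 with offsets, and deacetylases 7 of 18 higher and 5 lower (5 and 4 with offsets), with a median of 0.38. HDAC5, a class II deacetylase, was at 133, 144 and 145 CPM with shTMLHE #1, 52.0, 52.9 and 46.6 CPM with shTMLHE #2 and 222 to 249.7 CPM with CCNE1 alone. HDAC11 was at 34.6 to 40.0 CPM with shTMLHE #1, within the 34.2 to 40.9 CPM with CCNE1 alone, and at 10.7 to 14.6 CPM with shTMLHE #2. Demethylases and hydroxylases that use alpha-ketoglutarate, as TMLHE does, had 18 of 48 members higher and 18 lower (11 and 14 with offsets). TET3, which oxidises methylated cytosine, was at 37.7, 38.2 and 40.4 CPM with shTMLHE #1, 16.2, 14.3 and 14.5 CPM with shTMLHE #2 and 7.92 to 11.7 CPM with CCNE1 alone. Replication-dependent histones had 5 of 22 called higher and 1 lower (4 and 1 with offsets).

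Surface molecules read by immune cells differed between the hairpins. The list of antigen presentation by MHC class I had 13 of 18 members higher with shTMLHE #1 and 3 lower (9 and 1 with offsets), with a median of 0.58 and an offset median of 0.28. HLA-C was at 382, 409.9 and 431 CPM with shTMLHE #1, 202, 206 and 196 CPM with shTMLHE #2 and 358 to 369 CPM with CCNE1 alone. HLA-B was higher by 0.70; HLA genes resemble each other and reads may be split between them. The 3 lower members were PDIA3, TAP2 and B2M, and B2M, the light chain that classical class I molecules share, was at -0.54 as counted and at -0.02 with offsets. Ligands of NK cell receptors had 4 of 12 higher and 5 lower (3 and 5 with offsets). MICB, like ULBP2 a ligand of NKG2D, was lower with shTMLHE #1, at 91.3, 91.0 and 77.7 CPM against 175, 168 and 171 CPM with shTMLHE #2, with 61.9 to 67.3 CPM with CCNE1 alone. Interferon response genes had 10 of 30 higher and 8 lower (5 and 6 with offsets), and sensors of foreign nucleic acids 3 of 15 higher and 5 lower (2 and 6 with offsets).

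Genes for proteins that process hairpins and small RNAs were called in both directions, beside 60.3% called over all tested genes. Of 22 tested, 3 were higher with shTMLHE #1 and 12 lower (9 and 9 with offsets), with a median of -0.19 that was 0.06 with offsets, so the sign turned; 7 were called lower both ways. AGO2, the Argonaute that cleaves a matched mRNA, was at 106, 96.1 and 100.4 CPM with shTMLHE #1 and at 210.0, 204 and 215 CPM with shTMLHE #2, where CCNE1 alone had 76.8 to 80.8 CPM. DICER1, which stands outside the naming rule and was picked after its values were seen, was at -1.13 (offset value -0.58). TNRC6A, a partner of Argonaute in repression, was above the 14.8 to 15.7 CPM of CCNE1 alone in both groups, at 55.4 to 62.5 CPM with shTMLHE #1 and at 98.6 to 104 CPM with shTMLHE #2. SND1, of the same list, was higher with shTMLHE #1, at 0.62, and kept its call under all 17 alternatives. Splicing factors of the SR and hnRNP families had 6 of 38 higher and 28 lower (13 and 15 with offsets) as counted, with a median of -0.43 that was -0.01 with offsets; HNRNPM, at 2.22, was its most different member and had the opposite sign.

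Ribosomal proteins of the cytosol had 31 of 79 members higher and 29 lower (31 and 29 with offsets), with a median of 0.04 that turned to -0.09 under scaling to total counts. They took 8.46 to 8.82% of counts with shTMLHE #1 and 8.82 to 8.94% with shTMLHE #2, against 16.3 to 16.7% with CCNE1 alone. RPS25 at -2.53 stood apart from the next members by p, RPL7 at -1.04, RPS24 at -0.99 and RPL15 at 0.77. Proteasome subunits had 10 of 31 higher and 16 lower (12 and 8 with offsets), with a median of -0.24 that was 0.05 with offsets. The core subunit genes PSMB6 and PSMB2 were lower with shTMLHE #1, at -0.67 and -0.84, and both were below CCNE1 alone in each hairpin group.

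Epithelial, matrix and growth factor genes were mixed. In the list of epithelial and mesenchymal genes 13 of 31 were higher and 11 lower (13 and 11 with offsets), with a median of 0.07 that turned to -0.07 with offsets and to -0.06 under scaling to total counts. Keratin genes KRT8 and KRT18 were higher with shTMLHE #1 by 0.58 and 0.82, and SPARC, a secreted matrix protein, was at 1800 to 1874 CPM against 1016 to 1034 CPM. Matrix genes had 17 of 37 higher and 8 lower (14 and 16 with offsets), with a median of 0.19 that turned to -0.19 with offsets. COL6A1, a chain of collagen VI, was at 154, 161 and 163 CPM with shTMLHE #1, at 61.4, 61.4 and 58.2 CPM with shTMLHE #2 and at 58.1 to 72.7 CPM with CCNE1 alone. Keratinocyte differentiation genes had 8 of 16 higher and 4 lower (7 and 4 with offsets), and SFN, the 14-3-3 sigma protein of stratified epithelia, was at 361, 366 and 418 CPM against 114, 116 and 106 CPM, both under the 1047 to 1104 CPM with CCNE1 alone.

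Receptors and ligands of the EGF family had 5 of 14 members higher and 5 lower (2 and 5 with offsets), with the receptor gene ERBB3 at 1.49 and the ligand gene NRG1 at -0.81. AP-1 and immediate early genes had 12 of 29 higher and 8 lower (6 and 11 with offsets). Their median of 0.08 turned to -0.14 with offsets, to -0.05 under scaling to total counts and to -0.0053 without replicate 2 of shTMLHE #2. KLF2, a transcription factor, was at 1.49. Metallothioneins and zinc transporters had 8 of 23 higher and 10 lower (6 and 5 with offsets). The zinc binder MT2A was at 1263 to 1377 CPM with shTMLHE #1, 607 to 696 CPM with shTMLHE #2 and 398 to 424 CPM with CCNE1 alone, above it in both groups. Of the serous ovarian markers 4 of 9 were higher and 2 lower (4 and 2 with offsets). PAX8, the lineage transcription factor, was at 148 to 153 CPM with shTMLHE #1 against 68.6 to 71.4 CPM, and MSLN was 1.08 higher. KRT7 and CDH1 went the other way. Per total counts, KRT7 was at 848 to 914 CPM with shTMLHE #1 and at 1041 to 1069 CPM with shTMLHE #2. CDH1 was at 1.81 to 2.27 CPM and at 4.26 to 4.96 CPM. Endothelial markers had 2 of 7 higher and 1 lower (1 and 0 with offsets), fibroblast markers 2 of 4 and 1 (1 and 2 with offsets), and neither of the 2 tested leukocyte markers was called. The calls of CLDN5 (1.58 ± 0.60) and ERG (-0.90 ± 0.36) were lost with offsets, and CLDN5 also lost its call on leaving out any 1 of 3 hairpin libraries and ERG any 1 of 4. That of PDGFRB (-0.25 ± 0.08) was lost without replicate 3 of shTMLHE #2, and COL1A1 turned from 0.34 to -0.26 with offsets. The endothelial marker TIE1 (1.58) and the fibroblast marker ACTA2 (2.24) kept their calls under all 17 alternatives. ACTA2 rests on 8, 9 and 7 counts with shTMLHE #2. In bulk libraries a change in every cell and a change in the share of cells of a kind cannot be told apart.

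Because hairpins can act through short matches, the 3′UTRs of the differing genes were searched for shared words. One principal coding transcript per gene from GENCODE 29 was used for 11113 tested protein-coding genes with a mean log2 level of at least 1 and a 3′UTR of at least 7 bases. Each of the 16384 words of 7 bases was ranked by the mean offset value of the genes whose 3′UTR holds it minus that of the other genes, if at least 100 genes held it, which left 15631 words. Only the sense strand of the mRNA was read. The words below were picked by this ranking of the very differences they describe, so no test is given.

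The lowest word and the next share 6 bases, as do the highest and the next, and each pair joins to 1 run of 8 bases, shown because the gene groups below are defined by them.
Lowest words joined: ACTACCTA
Highest words joined: AAAGCGCA
For the 628 genes with the lowest word, CTACCTA, the mean differed from that of the rest by -0.38, and for the 808 genes with ACTACCT by -0.35. The word after these was at -0.23. The highest words AAGCGCA (164 genes) and AAAGCGC (203 genes) were at 0.32 and 0.29, and the word after these was at 0.26. As counted, the lowest pair again ranked 1 and 2, at -0.65 and -0.59. The highest pair did not lead as counted: it was at 0.32 and 0.26, and the word after it with offsets was highest, at 0.74. So the lead of the highest pair rests on the offsets.

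Genes with either of the lowest words in the 3′UTR numbered 1219, 11.0% of those searched. Their median offset value was -0.22, against 0.07 for genes with neither, and 41.3% were called lower with shTMLHE #1 both ways of counting, against 15.4%. The median was -0.21 with 1 site (1045 genes), -0.38 with 2 (146 genes) and -0.38 with 3 or more (28 genes). Longer 3′UTRs hold more words of any kind, so the medians are also given by their length. The words were picked from these same values, and the part of 3′UTR length was not tested. In each quartile of genes by 3′UTR length the median was lower with a word than without. It was -0.45 against 0.07 in the shortest, where 47 genes held a word, -0.40 against 0.07 and -0.30 against 0.05 in the middle, and -0.16 against 0.08 in the longest. For genes with these words only in the coding part the median was -0.09.

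The share of genes that held one of the lowest words was larger among the larger differences. The words were picked from these same differences, so a larger share there was favoured in advance and is a description only. Of 658 genes called lower with shTMLHE #1 both ways and at least 2-fold as counted, 42.2% held one, and of 55 such genes at least 4-fold lower, 60.0% did. Among genes higher with shTMLHE #1 the shares were 3.81% of 918 and 2.597% of 77. One of the highest words was held by 6.75% of those 918 genes and by 2.76% of all searched. Against CCNE1 overexpression alone, with offsets, genes with one of the lowest words had a median of -0.27 with shTMLHE #1 and -0.03 with shTMLHE #2, where all searched genes had -0.02 and -0.05. The 307 genes with one of the highest words had a median of 0.01 with shTMLHE #1 and -0.24 with shTMLHE #2. By these medians genes with the lowest words stood low with the first hairpin, and those with the highest words stood low with the second. The words were picked by the difference between these 2 values, so a gap between them was fixed in advance. Whether a hairpin acted through the words was not tested.

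**Figure D5:**
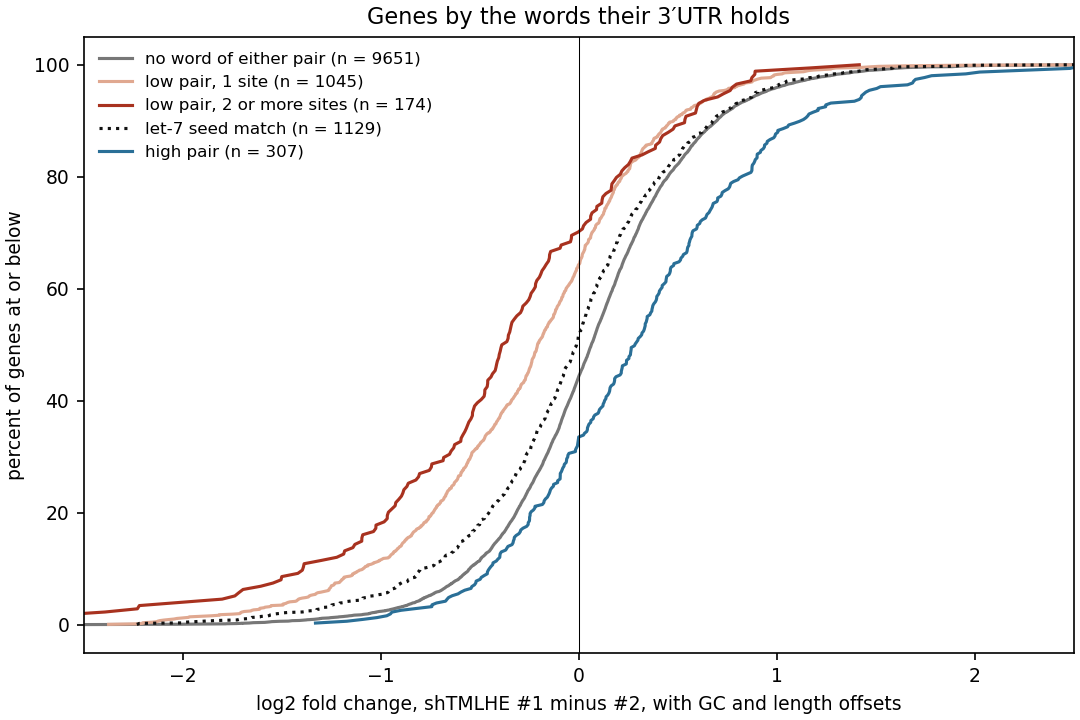
Cumulative percent of genes (vertical) by log2 fold change, shTMLHE #1 minus #2, with GC and length offsets (horizontal), for genes grouped by words in the 3′UTR. The median is -0.38 for genes with 2 sites of the lowest words, 0.29 for genes with one of the highest words and -0.01 for genes with the let-7 seed match.

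Of the largest differences picked by the naming rule, 16 genes lower with shTMLHE #1 were among those searched, and 10 held one of the lowest words in the 3′UTR, among them TRIQK, B4GALT6, NRAS, HOXC8, MAMDC2, GALNT7, HSP90AA1 and TRAM2. THAP12, ULBP2 and GCNT2 did not. Of 17 searched genes higher with shTMLHE #1, 1 (SIRPB1) held one of the lowest words and 1 (HPCAL1) one of the highest. Of all searched genes 11.0% held one of the lowest words and 2.76% one of the highest. The named genes were picked from the same differences as the words, so these counts do not test the words. The sites of 4 strongly lower genes are shown with their surroundings, 30 bases each, 5′ to 3′ on the mRNA in DNA letters from GENCODE 29 on GRCh38, with the words in capitals; all are in the last exon.
NRAS (3′UTR, chr1:114707150-114707179, minus strand): tttcataggttACTACCTAtacaatgtatg
HOXC8 (3′UTR, chr12:54012234-54012263, plus strand): atctttaacatACTACCTAaagggaacctg
GALNT7 (3′UTR, chr4:173321730-173321759, plus strand): aaaccaataacCTACCTActgacaagtaaa
IDH1 (3′UTR, chr2:208236451-208236480, minus strand): ccggaataaatACTACCTggaggtttgtcc
NRAS and HOXC8 hold the joined run of 8 bases, and GALNT7 and IDH1 hold 1 word each. In all, HOXC8 held 3 such sites in the 3′UTR and NRAS 2. RPS25 had none in its 3′UTR and 1 in its coding part.
RPS25 (coding part, chr11:119017469-119017498, minus strand): gtttgacaaagCTACCTAtgataaactctg
The site of one of the highest words in HPCAL1, which was low with shTMLHE #2, lies in its last exon.
HPCAL1 (3′UTR, chr2:10427386-10427415, plus strand): gactgcctttgAAGCGCAgccctctgtggc

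The mRNA of TMLHE itself was searched for the same runs. Its coding part holds the run of the lowest words once, in exon 5, and the run of the highest words appears in it as its reverse complement, in exon 3; the highest words themselves were not found in its 2 transcripts searched.
TMLHE (exon 5, run of the lowest words in capitals, chrX:155511680-155511709, minus strand): ggcacactgacACTACCTAttttcaagagc
TMLHE (exon 3, reverse complement of the highest words in capitals, chrX:155524590-155524619, minus strand): taataccgtgaTGCGCTTTgattacgtctg
Of 13100 coding transcripts 1.27% hold the first run in the coding part and 1.37% the second. The search of TMLHE was wider, since both runs and their reverse complements were sought over whole transcripts. The 2 forms shown occur in 2.66% and 2.39% of whole transcripts. The reverse complement of the lowest run occurs in 1.86% and the highest run itself in 1.97%. No source used here gives the sequences of the hairpins, so whether either run belongs to a hairpin was not tested.

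The let-7 family of microRNAs was used as a comparison, since its seed match shares 6 leading bases with the lowest word. Its member let-7a is shown from RefSeq (GRCh38.p14, chr9:94175962-94175983, plus strand), with the seed, bases 2 to 8, in capitals.
hsa-let-7a-5p: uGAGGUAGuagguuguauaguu
Its match, CTACCTC, was in the 3′UTR of 1129 genes, 10.2% of those searched, with a median offset value of -0.01, against -0.22 for the lowest words. The reverse complements of the lowest words, TAGGTAG and AGGTAGT, gave medians of 0.03 and 0.01, and those of the highest words, TGCGCTT and GCGCTTT, gave 0.11 and 0.07. Because the lowest and highest words were picked as the extremes of the ranking, no comparison word could pass them in it. So these medians do not test whether the comparison words go with a difference. The let-7 match itself ranked 145 from the lowest, with a mean difference of -0.08. Of its genes 23.7% were called lower with shTMLHE #1 both ways, against 18.3% of all searched, and 19.7% higher, against 23.2%. A word in a 3′UTR is a description of the sequence and not a measured site of binding.

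The differences were spread over the genome. As counted the chromosome medians ran from -0.27 on chromosome 4 to 0.42 on chromosome 19, and with offsets all chromosomes of the nucleus lay between -0.01 and 0.10. Among 255 windows of 10 Mb with at least 20 tested genes the offset medians ran from -0.32 to 0.43. The lowest was at 110 to 120 Mb of chromosome 4, where 17 of 28 genes were called lower with shTMLHE #1 as counted and 12 with offsets. Protein-coding genes made up 13119 of the tested genes, and 66.3% of them were called. Of 375 processed pseudogenes 7.73% were higher and 15.2% lower, and of 512 long intergenic RNAs 18.0% were higher and 12.7% lower.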

How the data were processed

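Libraries of Trizol- and column-purified, DNase-treated RNA were made with a NEBNext Ultra 2 RNA kit, per the labels' protocols. The authors deposited 1 table of raw read counts per gene for the 12 libraries. Reads were aligned with STAR 2.6.1 to GRCh38, per the submitters' processing notes; which program counted reads, and with which strand setting, is not stated there. Lengths and positions of genes in the deposited table equal those of GENCODE 29 for 100% of its genes. No column of the table was left unused.

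From these counts, edgeR 4.0.16 in R 4.3.3 (quasi-likelihood F-test, robust, TMM scaling, 1 mean per group over 12 libraries, 8 residual degrees of freedom, Benjamini-Hochberg adjustment) tested the 15378 genes kept by filterByExpr; 43357 were left out. Levels are CPM scaled by TMM, except in the marker check of the opening and for KRT7 and CDH1, where they are per total counts. The precision rests on the library totals, from 14054101 to 21457503 counts, and on 3 libraries a group. Offsets for GC content and exon length were natural splines with 5 degrees of freedom per library. The test was first checked on simulated counts with known changes in a small part of the genes and no dependence on GC content. That check does not cover differences as widespread, or as tied to GC content, as those found here.

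Named genes were TMLHE, CCNE1, the 4 genes given for the comparison (THAP12, ULBP2, FAM83A, CDKN1A), the 12 largest differences each way, the 6 smallest p-values each way among differences of at least 2-fold, and up to 4 called members per list by p: 169 in all, over 38 lists. The largest and the smallest-p genes had to have a mean log2 level of at least 1, a symbol that is not a clone, LOC or LINC name, and libraries that do not overlap, and to be called the same way with offsets. CPT1A, CPT1C, SLC22A4, ALDH9A1, MT-ND5, MT-ATP6, B2M, TAP2, PDIA3, DICER1, KRT7 and CDH1 stand outside this rule and were picked after their values were seen. The members and lists were chosen with earlier results of these data known, and the words in 3′UTRs were picked from the results. Alternatives were other scalings (DESeq2's size factors, upper quartile, total counts), other filters, the 6 hairpin libraries alone, offsets, the replicate number as a block, DESeq2 1.42.0, limma-voom (limma 3.58.1), a stricter threshold, and leaving out each hairpin library in turn. Some genes that the naming rule picks are not reported here.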

Additional observations from a re-analysis of the deposited data

How the results depend on the processing

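The count of called genes, 9277, lay between 8841 and 10188 under other scalings, filters, DESeq2 (9235), limma-voom (9682) and the 6 hairpin libraries alone, and between 8437 and 8694 when 1 hairpin library was left out. It was 7458 with offsets, 7909 at an adjusted p under 0.01 and 2409 when a difference of at least 2-fold was asked for. Scaling to total counts moved the median of all genes from -0.01 to -0.15 and the share of calls that were higher with shTMLHE #1 from 51.9% to 42.3%. With the replicate number as a block the count was 9125, and 7304 with block and offsets together. Libraries of the same number showed no shared deviation from their group means (correlations 0.005, -0.001 and -0.028). Whether they were paired in culture or preparation was not tested. The 4 given genes, the largest differences and those with the smallest p-values, 37 genes in all, kept their call under all 17 alternatives. The largest and the smallest-p genes had been picked for the same call with offsets and for libraries that do not overlap. Keeping their call with offsets was therefore fixed in advance, and keeping it under the other alternatives was favoured. Of 2873 gene values under alternatives 2812 kept direction and call, 45 lost the call, and 16 changed sign, all of them with offsets. Of the genes that changed sign, COL1A1 and PTBP1 were called in the opposite direction with offsets, and the others were not called. Values with offsets, without and with the block, were -0.2603 and -0.2602 for COL1A1, -0.032 and -0.0321 for ECHS1, 0.012 and 0.0145 for EIF2AK2, -0.0516 and -0.0516 for FOSL1, -0.0404 and -0.0399 for IER3, -0.002 and -0.0025 for IFITM3, -0.0785 and -0.0789 for PTBP1, and -0.035 and -0.0354 for PVR. The median changed sign for 10 lists with offsets and for 4 with scaling to total counts. TMLHE also lost its call with limma-voom (adjusted p = 0.0931). At 6 to 21 counts per library, the depth limits how well TMLHE can be compared between the hairpins.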

Other observations

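LINC02009, a long intergenic RNA at chr3:46416524-46423591 (GRCh38), had no count in any of the 3 libraries of shTMLHE #2. It had 21, 22 and 37 counts with shTMLHE #1, 52, 64 and 43 with CCNE1 overexpression alone, and 49, 53 and 54 in control cells. Against a floor of 3 counts per library it was at least 10.7-fold higher with shTMLHE #1 than with shTMLHE #2. The gene was picked after its values were seen. KRT14, a keratin of basal epithelium, was also without a count with shTMLHE #2, against 6, 1 and 3 counts with shTMLHE #1. It had 3, 4 and 0 counts with CCNE1 overexpression alone and 36, 16 and 30 in control cells. So KRT14 was already near the floor without a hairpin in the overexpressing cells, and its bound against the same floor is only 1.31-fold.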
